A study of Mus musculus with 108 samples.

Results

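The 10 genes studied here encode proteins of the early endosome, and their RNA was measured in single mouse oocytes that lacked Exosc10 (oocyte-specific knockout, cKO) and in control oocytes. They are Eea1, Rabep1, Rabep2, Appl1, Appl2, Pik3c3, Hgs, Vps35, Vps26a and Snx1, and each was found by its symbol as 1 of 55573 Ensembl gene IDs in the gene count files. Exosc10 encodes a ribonuclease of the nuclear RNA exosome, the complex that degrades and trims RNA from its 3′ end. Of 108 samples, 86 gene libraries of 1 oocyte each were used: 64 polyA libraries, made from RNA captured through its poly(A) tail, and 22 RiboMinus libraries, made with random primers on RNA depleted of ribosomal RNA. GV oocytes were fully grown and arrested with an intact nucleus (germinal vesicle), GV3h oocytes had spent 3 hours in culture in M2 medium, and MII eggs were mature eggs taken from oviducts.

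Among polyA libraries there were 7 control and 15 cKO GV oocytes (2 females each), 8 control and 11 cKO GV3h oocytes (3 females each), and 8 control and 15 cKO MII eggs (3 females each). The RiboMinus libraries held 8 control and 7 cKO oocytes at GV (2 females each), 3 control eggs at MII from 1 female, and 4 cKO eggs at MII from 2 females. The promoter of the Cre transgene, the strain and the age of the females are not given in the sources used here, nor is the genotype of the controls beyond the label control. Genotype and stage did not vary within a female, so the counts of each female were summed and the female was the replicate (edgeR's quasi-likelihood test, Benjamini-Hochberg adjustment over all genes, called at an adjusted p under 0.05). Where no other fit is named, passed and called refer to this test. 2 other models are given beside it where they add calls: the DESeq2 Wald test on the same sums, and limma on single oocytes with the female as a random effect. In the RiboMinus MII controls, genotype or stage cannot be told apart from the single female, V1145.

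Early endosomes are the first sorting station for cargo taken up from the cell surface. The small GTPase Rab5 marks them and gathers effectors: rabaptins keep Rab5 active, the lipid kinase Vps34 (gene Pik3c3) makes the phosphoinositide PI3P, and Eea1 binds both Rab5 and PI3P to tether membranes before they fuse. From there Hgs, with its partner Stam, sorts ubiquitinated cargo towards lysosomes, while the retromer (Vps35, Vps26 and Vps29) and sorting nexins such as Snx1 return cargo to the Golgi or the surface. Fully grown oocytes transcribe very little, so maturation draws on stored RNA, and the poly(A) tails of stored RNAs lengthen or shorten as the egg matures. A polyA library reads the amount of an RNA and its tail together, and these cannot be told apart in it.

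Start-site regions are shown for 3 members on which the results turn: Eea1, which was lower in cKO eggs, Rabep2, which was higher in cKO GV oocytes, and Snx1, which fell in the polyA libraries by MII. Each run covers 230 bases, from 250 to 21 bases before the RefSeq start (GRCm38.p6), 5′ to 3′ on the gene's strand, and holds no GENCODE M21 exon. The windows of Eea1 and Rabep2 lie before the GENCODE gene, while that of Snx1 lies inside it, between exons (chromosome 9, bases 66088133 to 66126587, minus strand), because GENCODE starts the gene further upstream than the RefSeq start used here. Capitals mark the GC box, whose letters are GGGCGG, and the shorter motif called the CCAAT box, each searched on both strands, so a capital run may be the reverse complement.
Eea1, chr10:95940413-95940642, plus strand: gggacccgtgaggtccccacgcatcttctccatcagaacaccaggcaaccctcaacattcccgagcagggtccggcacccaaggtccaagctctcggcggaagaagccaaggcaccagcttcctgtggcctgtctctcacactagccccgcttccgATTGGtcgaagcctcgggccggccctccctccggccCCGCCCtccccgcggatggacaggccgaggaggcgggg
Rabep2, chr7:126428517-126428746, plus strand: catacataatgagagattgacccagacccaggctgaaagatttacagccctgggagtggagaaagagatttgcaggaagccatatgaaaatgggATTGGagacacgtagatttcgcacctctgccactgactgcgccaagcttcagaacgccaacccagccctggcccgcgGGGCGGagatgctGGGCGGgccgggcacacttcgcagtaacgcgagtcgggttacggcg
Snx1, chr9:66124907-66125136, minus strand: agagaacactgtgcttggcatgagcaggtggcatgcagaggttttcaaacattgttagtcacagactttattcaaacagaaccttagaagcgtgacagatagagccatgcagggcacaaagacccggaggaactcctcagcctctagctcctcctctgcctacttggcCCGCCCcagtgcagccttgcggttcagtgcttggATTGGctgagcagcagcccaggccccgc

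Of the 6 members in the promoter table (Eea1, Rabep2, Appl2, Hgs, Vps26a and Snx1), 5 had a GC box in this window, against 29.8% of all 32851 promoters, and 4 had a CCAAT box, against 32.2%. The GC content was 67.8% for Eea1, 57.4% for Rabep2 and 55.2% for Snx1, with a median of 51.7% over all promoters. None of the 6 had TATAAA (11.8% of promoters) or TGACGTCA (1.28%), and only Vps26a had CACGTG (5.35%), all searched on both strands. The matches describe letters in the window and nothing of the factors that bind them.

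The libraries held 4638718 to 8735914 gene counts (polyA) and 12319658 to 62675760 (RiboMinus). The ERCC spike-in RNA was not used here, so each level is a share of its library, given in CPM (counts scaled to the same library total, with TMM factors), and fewer molecules of one RNA and more of the others cannot be told apart. Exosc10, the targeted gene, separated the genotypes in all 5 comparisons, with log2 fold changes from −7.49 to −5.34, adjusted p from 2.07e-06 to 0.00101, and no overlap between oocytes. All 10 oocyte markers, among them Gdf9 and Zp3, averaged over 1 CPM in all 10 groups, and no oocyte's summed level was under 5612 CPM. The 12 cumulus and granulosa markers summed to 67.7 to 205 CPM, mostly Nr5a2, Cyp19a1 and Kitl, while the highest group means of the other 9 ran from 0.0986 CPM (Tnfaip6) and 0.443 CPM (Foxl2) to 4.14 (Amh), 4.22 (Fshr), 7.13 (Inha) and 8.22 CPM (Ptgs2).

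The members spanned a wide range of abundance. Scaled by exon length, Vps26a, the cargo-binding arm of the retromer, led in control GV oocytes with a median of 79.1 CPM per kb in polyA libraries (range 70.8 to 94.1) and 122 in RiboMinus libraries (109 to 132). Hgs, the ESCRT-0 subunit that captures ubiquitinated cargo, followed at 43.1 CPM per kb (32.3 to 49.0), then Appl1, an adaptor of a distinct Rab5 compartment, at 26.4 (20.9 to 28.9), both in polyA libraries. These 3 did not overlap each other there.

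Below them in the polyA libraries lay Eea1 (median 15.7 CPM per kb), Vps35 (11.6), Pik3c3 (10.1), Rabep1 (5.00) and Snx1 (4.92). Eea1 overlapped Vps35, Vps35 overlapped Pik3c3, and Rabep1 overlapped Snx1, so those neighbours are not ranked. Appl2 (0.190 CPM per kb) and Rabep2 (0.0321) were the lowest and overlapped each other. The RiboMinus libraries gave the same order of medians, with overlap there also between Hgs and Appl1, Appl1 and Eea1, and Pik3c3 and Rabep1, but none between Rabep1 and Snx1 or between Eea1 and Vps35. The paralogue pairs were therefore unequal: Appl1 was far above Appl2 and Rabep1 far above Rabep2 in every control GV oocyte.

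**Figure D1:**
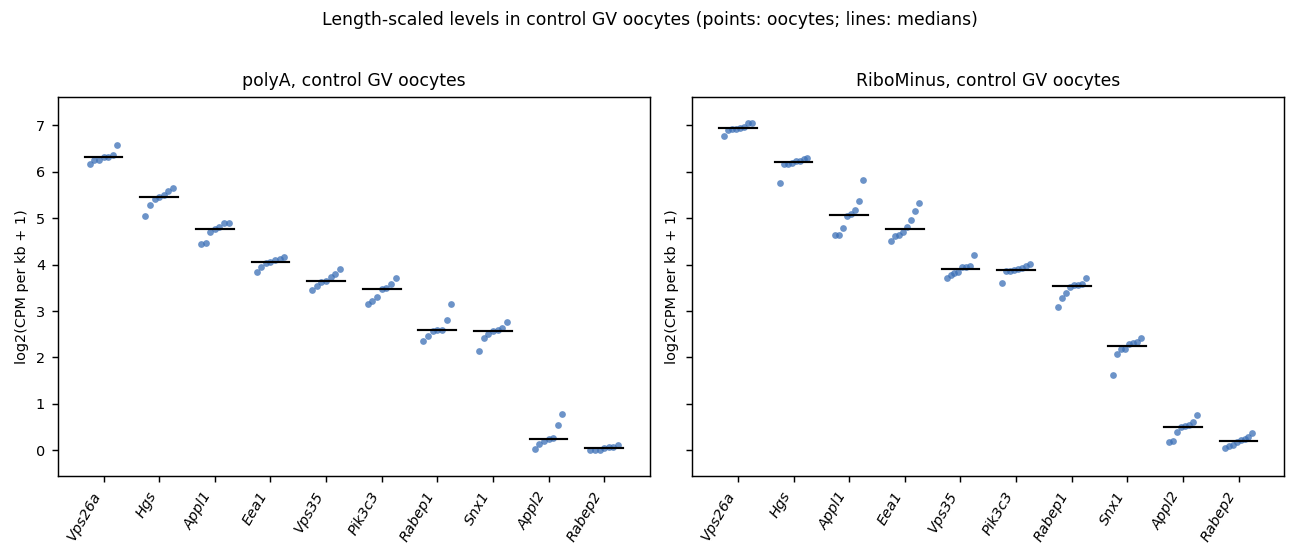
Levels scaled by exon length, as log2(CPM per kb + 1), of the 10 members in control GV oocytes, for 7 polyA libraries (left) and 8 RiboMinus libraries (right). Points are oocytes and lines are medians. Vps26a is highest and Appl2 and Rabep2 are lowest in both.

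Eea1, the tether, was the member with a lower level in cKO oocytes most often: its log2 fold change was below 0 in all 5 genotype comparisons and passed the test in 3. It lies on chromosome 10 (GRCm38, bases 95940650 to 96045518, plus strand). In polyA libraries at MII, control eggs held 228 CPM at the lowest, 291 at the median and 346 at the highest, and cKO eggs held 111, 152 and 197. No cKO egg reached the lowest control egg. The log2 fold change was −0.91 (SE 0.20, adjusted p = 0.0059), a 1.88-fold lower level, and all 3 cKO females (116 to 184 CPM) lay below all 3 control females (254 to 318 CPM).

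The RiboMinus eggs showed the same separation. The 3 control eggs of V1145 held 288, 237 and 259.7 CPM of Eea1, and the 4 cKO eggs held 118 and 113 (V1166) and 70.1 and 67.7 (V1167). The log2 fold change was −1.56 (SE 0.32, adjusted p = 0.0286), or 2.95-fold lower, with the control side resting on that female. The summed level of the cumulus and granulosa markers (6 of 12 averaging over 1 CPM in each group) also separated these eggs, at 153 to 169 CPM in controls and 72.25 to 114 CPM in cKO eggs, as did that of the 10 oocyte markers, at 12570 to 13480 CPM against 7238 to 10420 CPM. The libraries of these eggs stood apart by genotype in 2 further ways, with no overlap: reads outside genes were 11.2 to 12% of the total in controls and 8.43 to 9.56% in cKO eggs, and gene counts were 16220993 to 20447150 against 20678209 to 62675760. All 4 values moved with the lower Eea1, Appl1 and Vps26a of the RiboMinus cKO eggs, and their part in these results was not tested.

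At GV3h Eea1 was 131, 146 and 177 CPM in controls (lowest, median, highest) and 72.4, 100.1 and 135 CPM in cKO oocytes, which overlapped at single oocytes but not as female means. The log2 fold change of −0.67 (SE 0.20) had an adjusted p of 0.0225. It no longer passed without cKO female V993 (−0.55, adjusted p = 0.107), control V951 (−0.69, 0.0546) or control V982 (−0.61, 0.0820), or with library totals in place of TMM (−0.44, 0.107).

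At GV, Eea1 in polyA libraries was 128, 150.2 and 164 CPM in controls and 58.4, 91.4 and 162 CPM in cKO oocytes, and the 2 cKO females differed from each other (129.8 CPM in V857, 78.0 in V888). The log2 fold change of −0.60 (SE 0.24, adjusted p = 0.149) did not pass. It did without V857 (−1.02, adjusted p = 0.0459) and by limma (−0.64, 0.0050). In RiboMinus libraries at GV the controls held 209, 250.5 and 377 CPM and the cKO oocytes 181, 232 and 268 CPM, overlapping widely (log2 fold change −0.27, SE 0.27, adjusted p = 0.687).

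**Figure D2:**
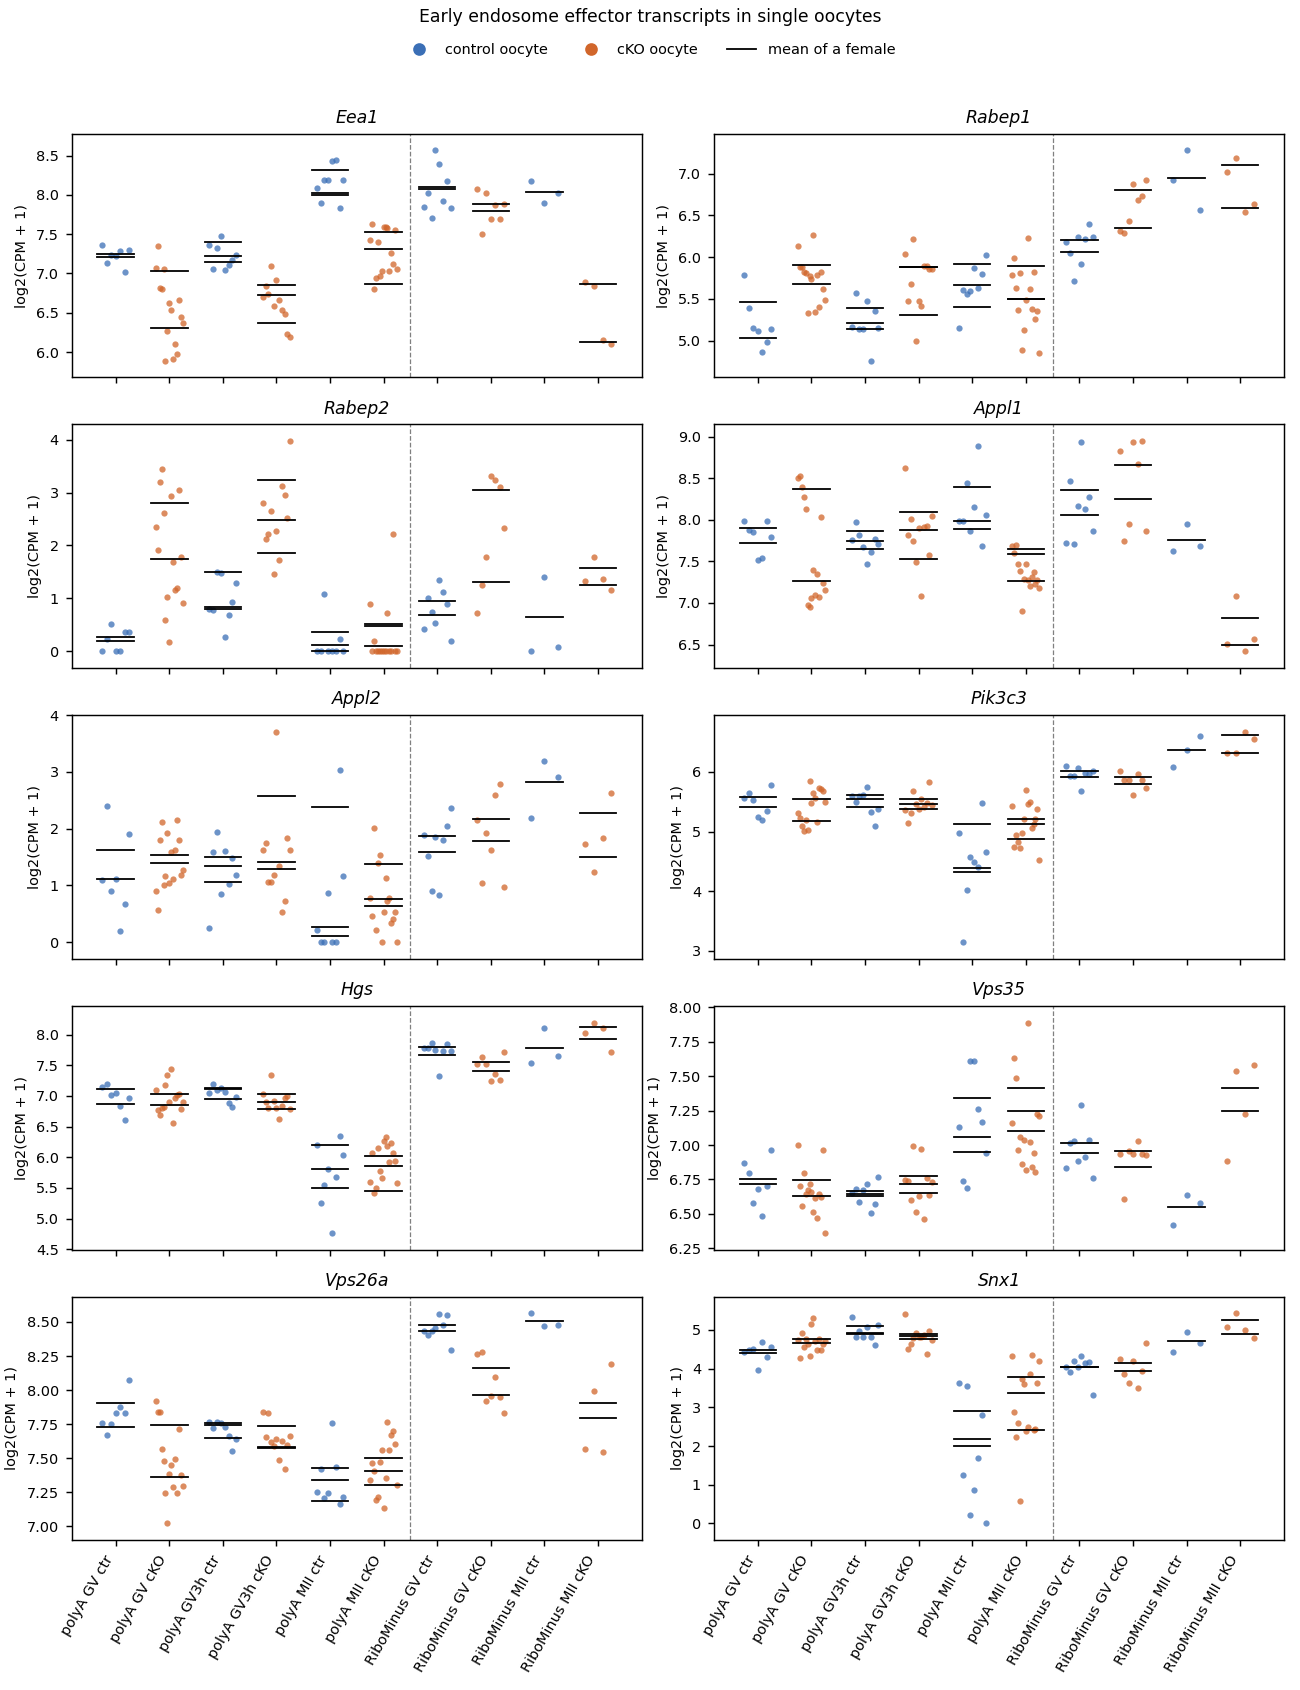
Level of each member, as log2(CPM + 1), in every oocyte of the 10 groups, with control oocytes in blue, cKO oocytes in orange and black lines for the means of females. The dashed line divides polyA (left) from RiboMinus (right) libraries. Eea1 is lower in cKO eggs at MII in both, Rabep2 is higher in cKO GV and GV3h oocytes, and Hgs and Snx1 are lower at MII than at GV in polyA libraries.

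Rabep2, one of the rabaptins that bind active Rab5, was nearly absent from control oocytes and had the largest rise in cKO oocytes among the members. The 7 control GV oocytes of the polyA libraries held 0 to 3 counts each, 8 in all. The 15 cKO oocytes held 1 to 83 counts, 413 in all, or 0.134, 2.43 and 9.89 CPM at the lowest, median and highest. Summed CPM was 20.1 times higher in cKO oocytes (95% interval 10.1 to 47.0, counting error only).

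The edgeR log2 fold change of Rabep2 at GV was 4.46 (SE 1.01, adjusted p = 0.0171), a size that depends on the prior count when controls are this low. Single oocytes overlapped, since the lowest cKO oocyte (0.134 CPM) lay within the control range (0.0 to 0.433 CPM). The female means did not overlap (2.37 and 6.005 CPM in cKO females, 0.201 and 0.146 in controls). The call was lost without cKO female V857 (3.54, adjusted p = 0.0795), control V856 (4.69, 0.0994) or control V889 (4.24, 0.188), and when only the GV groups were fitted (4.45, 0.144).

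At GV3h Rabep2 was 0.206, 0.818 and 1.84 CPM in controls and 1.76, 4.74 and 14.7 CPM in cKO oocytes. Only the top of the control range reached the bottom of the cKO range, and the log2 fold change was 2.18 (SE 0.72, adjusted p = 0.0363). It did not pass without V946 (2.26, adjusted p = 0.0692), V993 (1.65, 0.175), V951 (1.96, 0.128) or V995 (1.98, 0.127). In RiboMinus libraries at GV the values were 0.143, 0.765 and 1.54 CPM in controls and 0.642, 4.02 and 8.92 CPM in cKO oocytes. The 2 cKO females differed from each other (1.49 CPM in V1126, 7.26 in V1131), against 0.613 and 0.926 CPM in control females. The log2 fold change of 2.42 (SE 0.78) had an adjusted p of 0.2295, and passed without a filter on low counts (2.42, 0.0440) and by the DESeq2 Wald test (2.46, 0.0405).

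At MII Rabep2 was at or near 0 in most polyA libraries: the medians were 0.0 CPM in both genotypes, with 9 counts in all over the 8 control eggs. The 15 cKO eggs held 0 to 22 counts each, with 3.62 CPM at the highest (log2 fold change 0.91, SE 0.88, adjusted p = 0.498). In RiboMinus eggs it was 0.0, 0.0519 and 1.66 CPM in the 3 controls (lowest to highest) and 1.22 to 2.43 CPM in the 4 cKO eggs, which overlapped, while the female means did not (0.57 against 1.40 and 1.97 CPM; log2 fold change 1.52, SE 0.99, adjusted p = 0.346). The fall from GV to MII in cKO oocytes passed the test (log2 fold change −3.64, SE 0.81, adjusted p = 0.00175, and −2.73, 0.0275, without V857). The gene (chromosome 7, bases 126428759 to 126449245) shares 763 exon bases with Atp2a1 on the other strand. The strand setting of the counting is not given in the sources used here, so reads of these bases cannot be assigned to one of them.

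Rabep1, the other rabaptin, was measured well in all groups and passed no genotype test with female sums of all females and TMM scaling. In polyA libraries at GV it was 28.1, 34.3 and 54.0 CPM in controls and 39.2, 54.4 and 75.7 CPM in cKO oocytes (log2 fold change 0.49, SE 0.25, adjusted p = 0.245), and limma called the difference (0.57, adjusted p = 0.0479). At GV3h the difference was 0.40 (SE 0.20, adjusted p = 0.167), and it passed without cKO female V983 (0.60, adjusted p = 0.0432) or with library totals (0.62, 0.0378). At GV in RiboMinus libraries it was 0.45 (SE 0.26, adjusted p = 0.459), and at MII −0.08 in polyA and −0.14 in RiboMinus libraries. Rabep1 shares 48 exon bases with Nup88 on the other strand.

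Appl1 and Appl2 bind Rab5 on endosomes that lack Eea1 and link receptors to signalling. Appl1 passed no genotype test before MII, with log2 fold changes of 0.03 at GV and 0.04 at GV3h in polyA libraries and 0.15 at GV in RiboMinus libraries (SE 0.28, 0.23 and 0.24). At GV the 2 polyA cKO females lay on opposite sides of the controls, at 331 CPM (V857) and 153 CPM (V888), against 239 and 209.6 CPM.

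In RiboMinus eggs Appl1 was 197, 247 and 204 CPM in the 3 controls and spanned 84.6 to 134 CPM in the 4 cKO eggs. The groups did not overlap, and the log2 fold change was −1.25 (SE 0.28, adjusted p = 0.0374), a 2.37-fold lower level. The call was lost with library totals (−1.05, adjusted p = 0.0569) and when only these groups were fitted (−1.16, 0.0798). In polyA eggs the values were 206, 259.5 and 473 CPM in controls and 119, 158 and 207 CPM in cKO eggs, touching at 1 end, with a log2 fold change of −0.64 (SE 0.23, adjusted p = 0.0665). That difference passed by the DESeq2 Wald test (−0.66, adjusted p = 0.0296), by limma (−0.68, 0.0067), without a filter on low counts (−0.63, 0.00467) and when only the MII groups were fitted (−0.65, 0.0256). Every cKO female mean (153 to 199 CPM) was below every control female mean (236 to 334 CPM).

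Appl2 was low throughout, with group medians of 0.0807 to 1.54 CPM in polyA and 2.43 to 6.54 CPM in RiboMinus libraries, and passed no test with female sums in the fit of all groups. Its rise from GV to MII in RiboMinus controls (1.44, SE 0.63, adjusted p = 0.325) passed in the fit of these groups alone (1.44, 0.0218) and with oocytes as replicates (1.39, 0.0394). In polyA eggs its genotype difference turned on 1 female: the log2 fold change was −0.58 (SE 0.95, adjusted p = 0.712) with all females and 2.54 (adjusted p = 0.0485) without control V896, whose mean was 4.20 CPM against 0.0807 and 0.206 CPM in the other controls. Without V896 the fall from GV to MII in controls also passed (−3.27, adjusted p = 0.00671, against −0.14 with it).

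Pik3c3, the catalytic subunit that makes PI3P, did not pass the genotype test in any comparison, with log2 fold changes from −0.19 to 0.42. The highest was in polyA eggs, where controls held 7.88, 22.2 and 43.8 CPM and cKO eggs 22.0, 34.2 and 51.0 CPM (0.42, SE 0.21, adjusted p = 0.168). It passed without control female V896 (0.70, adjusted p = 0.0236) and by limma (0.64, 0.0342). Hgs gave log2 fold changes from −0.28 to 0.17 by genotype, none with an adjusted p under 0.383.

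Of the retromer, Vps35, the scaffold, and Vps26a passed no genotype test by edgeR with all females, but other fits called both in RiboMinus eggs. Vps35 differed by −0.12 to 0.09 in 4 comparisons. In RiboMinus eggs it was 84.6, 98.6 and 94.8 CPM in the 3 controls and 117 to 191 CPM in the 4 cKO eggs, which did not overlap, but the log2 fold change of 0.64 (SE 0.27) had an adjusted p of 0.165. The limma fit called it (0.73, adjusted p = 0.0175). Vps35 shares 171 exon bases with Orc6 on the other strand.

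Vps26a separated the genotypes by oocyte in both RiboMinus stages, and whether it passed depended on the fit. At GV the controls held 312, 347 and 377 CPM and the cKO oocytes 227, 247 and 310.1 CPM (log2 fold change −0.45, SE 0.20, adjusted p = 0.354). At MII the 3 controls held 377, 354 and 356 CPM and the cKO eggs 186 to 291 CPM (−0.78, SE 0.24, adjusted p = 0.0821), and this passed without cKO female V1167 (−0.88, adjusted p = 0.0473), by the DESeq2 Wald test (−0.72, 0.0383) and by limma (−0.71, 0.00669). In polyA libraries the differences were −0.34, −0.15 and 0.04 at GV, GV3h and MII, of which limma called the first (−0.32, adjusted p = 0.0415).

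Snx1, a sorting nexin that bends endosomal membrane into tubules, was 0.0, 1.82 and 11.5 CPM in polyA control eggs and 0.490, 6.41 and 19.4 CPM in cKO eggs. The log2 fold change of 1.01 (SE 0.35) had an adjusted p of 0.0534, and oocytes and female means overlapped. It passed without control V836 (1.41, adjusted p = 0.0169) or cKO V842 (1.35, 0.00898), with library totals (1.12, 0.0329), without a filter on low counts (1.04, 0.0163), with a mean of at least 50 counts (1.01, 0.0438), with the DESeq2 Wald test (0.98, 0.0226) and by limma (2.13, 0.0315). It did not pass with oocytes as replicates (1.10, adjusted p = 0.163), with DESeq2 size factors or in the fit of these groups alone. Nor did it pass without V853, V896, V841 or V897. Control eggs held 0 to 77 counts of Snx1 each. The other 4 genotype differences of Snx1 lay between −0.20 and 0.29.

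By genotype, 1 member was called at GV in polyA libraries (7.38% of 19242 genes tested were called), 2 at GV3h (25.2%) and 1 at MII (18.9%). In RiboMinus libraries edgeR called none at GV (0.0315% of 25425 genes, 1 member at an unadjusted p under 0.05), where the DESeq2 Wald test called Rabep2 (2.46, adjusted p = 0.0405), and 2 at MII (7.3%). The median log2 fold change of the members was −0.04, −0.07 and −0.02 in the polyA comparisons, beside 0.08, 0.07 and 0.12 over all genes, and −0.10 and −0.06 in RiboMinus libraries, beside 0.04 and 0.25. All 10 members were tested in each.

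With each oocyte taken as a replicate, more was called: 4 members at GV (Eea1, Rabep1, Rabep2 and Vps26a; 40.4% of genes), 3 at GV3h (Eea1, Rabep1 and Rabep2; 55.5%) and 3 of 8 tested at MII (Eea1, Appl1 and Pik3c3; 37.6%) in polyA libraries. In RiboMinus libraries it called 4 at GV (Rabep1, Rabep2, Hgs and Vps26a; 37.6%) and 3 at MII (Eea1, Appl1 and Vps35; 23.7%). Oocytes of 1 female share that female, so these p-values measure the spread between oocytes and not between animals.

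**Figure D3:**
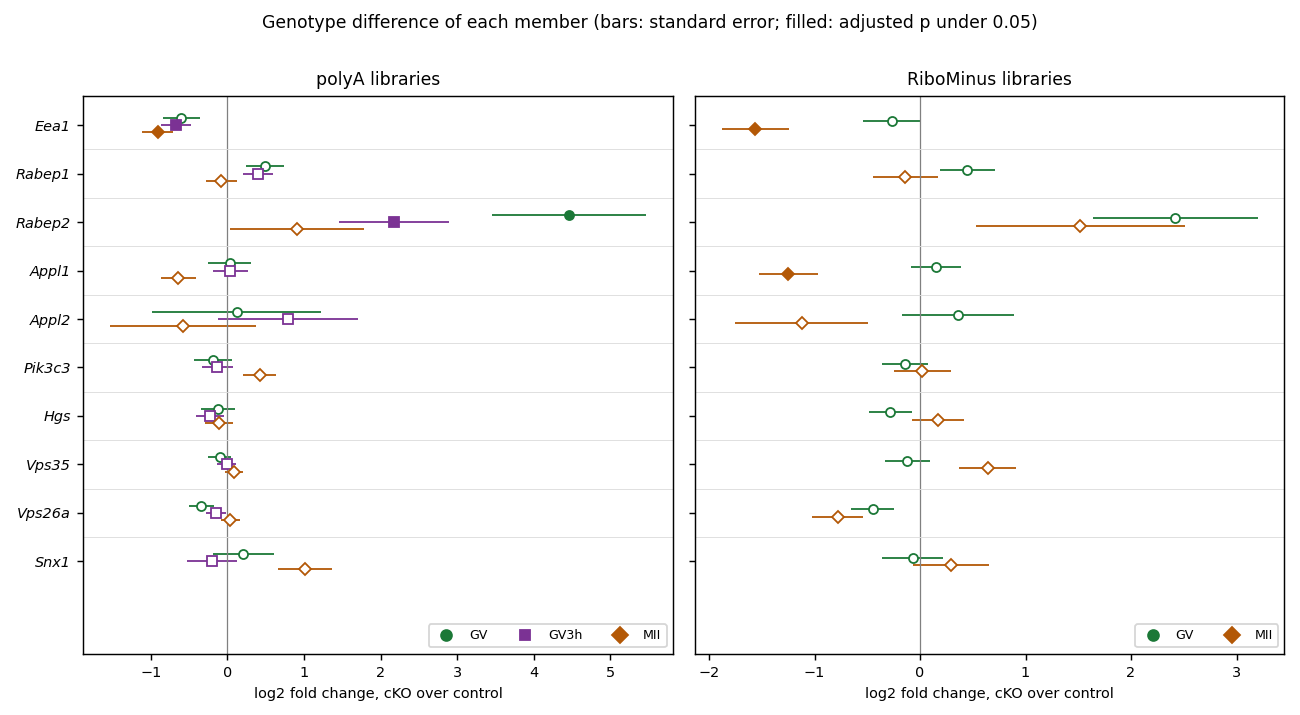
Log2 fold change of each member, cKO over control, from female sums in polyA (left) and RiboMinus (right) libraries, with standard errors; the horizontal scales differ between the panels. Filled symbols mark an adjusted p under 0.05: Rabep2 at GV and GV3h and Eea1 at GV3h and MII in polyA libraries, and Eea1 and Appl1 at MII in RiboMinus libraries.

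During 3 hours in culture no member changed by the test. None of 19242 genes was called in controls (0.0%), in cKO oocytes (0.0%) or for the difference between them (0.0%), and 425, 373 and 307 genes had an unadjusted p under 0.05. The DESeq2 Wald test called 18, 17 and 0 genes. In controls 8 of the 10 members moved by at most 0.11. Rabep2 (2.60, SE 0.95) and Snx1 (0.54, SE 0.37) had adjusted p of 1.0. With each oocyte as a replicate none of the 8 members tested in controls was called (0.519% of genes), and none of 10 in cKO oocytes (0.602%). Rabep2 and Appl2 were not tested in controls in that fit.

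From GV to MII the polyA libraries divided the members. In controls 6 were called (42.5% of genes): Eea1 and Vps35 rose, and Hgs, Pik3c3, Vps26a and Snx1 fell. Rabep1 (0.47, SE 0.23, adjusted p = 0.112) was called as higher at MII by the DESeq2 Wald test (0.56, adjusted p = 0.0369). With oocytes as replicates all 8 members tested were called (63.4% of genes), with Rabep1 (0.44, 0.0176) and Appl1 (0.37, 0.0358) added. In cKO oocytes 5 were called (44.7%): Eea1 and Vps35 rose, and Hgs, Rabep2 and Snx1 fell. In cKO oocytes as replicates 6 of 8 tested were called (74.8% of genes), with Appl1 (−0.39, adjusted p = 0.0295) and Pik3c3 (−0.31, 0.0210) added. The members' median log2 fold change was −0.12 in controls and −0.28 in cKO oocytes, beside −0.26 and −0.33 over all genes. The share of reads outside genes also separated the stages in each genotype, at 9.88 to 11.2% in control GV oocytes against 5.90 to 6.68% in control eggs, and 10.1 to 14.2% against 5.86 to 6.77% in cKO. In controls so did the gene counts (5535240 to 6700256 at GV, 6863768 to 8459101 at MII). These values moved with every call from GV to MII in polyA libraries, and their part in them was not tested.

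With female sums of all females, Snx1 fell most among the members in controls. It went from 14.7, 21.3 and 24.9 CPM in control GV oocytes to 0.0, 1.82 and 11.5 CPM at MII, with no overlap (log2 fold change −2.19, SE 0.38, adjusted p = 0.000193). In cKO oocytes it went from 18.3, 24.97 and 38.4 CPM to 0.490, 6.41 and 19.4 CPM, overlapping at the ends (−1.39, SE 0.37, adjusted p = 0.00548). The test of the difference between the 2 falls gave 0.80 (SE 0.53, adjusted p = 0.486).

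Hgs fell by like amounts in both genotypes. Controls went from 96.2, 128 and 146 CPM to 26.2, 52.6 and 80.2 CPM (log2 fold change −1.11, SE 0.20, adjusted p = 0.000311), and cKO oocytes from 93.2, 118 and 173 CPM to 41.7, 60.3 and 79.5 CPM (−1.10, SE 0.20, adjusted p = 0.000329). Neither pair of stages overlapped, and the difference between the falls was 0.01 (SE 0.29).

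Eea1 rose in controls from a median of 150.2 to 291 CPM, with no overlap of oocytes (log2 fold change 0.94, SE 0.23, adjusted p = 0.00336). In cKO oocytes it rose from 91.4 to 152 CPM, with overlap (0.63, SE 0.23, adjusted p = 0.0331). Both calls were lost with library totals (0.51, adjusted p = 0.0752, and 0.11, 0.704). The cKO call was also lost without V888 (0.29, adjusted p = 0.363), V841 (0.50, 0.117) or V897 (0.58, 0.0817) and in the fit of these groups alone (0.64, 0.103). The calls of the rises of Eea1 and Vps35 thus depended on the scaling.

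Vps35 rose from 88.7, 103 and 124 CPM to 102, 141 and 195 CPM in controls (0.44, SE 0.14, adjusted p = 0.0191) and from 81.3, 99.3 and 127 CPM to 110.5, 130.2 and 236 CPM in cKO oocytes (0.63, SE 0.14, adjusted p = 0.00171). Its oocytes overlapped between stages, and its female means did not. With library totals the changes were 0.0 (adjusted p = 1.0) and 0.11 (0.533). The control call was also lost without V856 (0.43, adjusted p = 0.106), V889 (0.46, 0.0842) or V853 (0.31, 0.0878), without a filter on low counts (0.48, 0.0947) and in the fit of these groups alone (0.45, 0.0556).

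Pik3c3 fell in controls from 35.5, 45.0 and 54.2 CPM to 7.88, 22.2 and 43.8 CPM (−0.83, SE 0.23, adjusted p = 0.00766), a call lost without control V856 (−0.76, adjusted p = 0.0643) and in the fit of these groups alone (−0.81, 0.0522). Vps26a fell from 202, 226 and 269 CPM to 142, 151 and 216 CPM (−0.46, SE 0.15, adjusted p = 0.0182), a call lost without V889 (−0.33, adjusted p = 0.229) or V896 (−0.39, 0.0649) and without a filter on low counts (−0.41, 0.136). Oocytes overlapped for both, female means for neither. In cKO oocytes the changes were −0.21 and −0.08, and the tests of the difference gave 0.61 (adjusted p = 0.367) and 0.38 (0.385). With library totals both fell in cKO oocytes too (−0.74, adjusted p = 0.0154, and −0.60, 0.00141), as did Rabep1 (−0.62, 0.0359) and Appl1 (−0.85, 0.0117).

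By edgeR, no member passed the test of a different GV to MII change between genotypes in polyA libraries (1.94% of genes did, and 1 member had an unadjusted p under 0.05). Without cKO female V888, Appl1 passed it (−1.13, adjusted p = 0.0334, against −0.67 and 0.386 with all females). In cKO oocytes without V888, Appl1 also fell from GV to MII (−0.80, adjusted p = 0.00968, against −0.34 with it).

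The RiboMinus libraries gave another picture of maturation. Between GV and MII edgeR, fitted on all RiboMinus groups, called no member in controls (0.00787% of 25425 genes passed, and 2 members had an unadjusted p under 0.05). Fitted on these groups alone it called 3 members, all higher at MII: Rabep1 (0.81, adjusted p = 0.00863), Appl2 (1.44, 0.0218) and Snx1 (0.68, 0.0395), with 5732 genes called in all. The limma fit called Rabep1 (0.80, adjusted p = 0.0350). Eea1 moved by −0.05 (SE 0.33), Hgs by 0.04 (SE 0.25) and Snx1 by 0.67 (SE 0.35, adjusted p = 0.404). Snx1 was 9.02, 16.1 and 18.9 CPM in control GV oocytes and 29.8, 24.5 and 20.6 CPM in the 3 control eggs, all above the GV range, and Rabep1 (0.80, adjusted p = 0.275) likewise did not overlap. Vps35 was lower in the control eggs, also without overlap (107.6 to 155.6 CPM at GV, 84.6 to 98.6 at MII; −0.45, SE 0.27, adjusted p = 0.468), and was called with oocytes as replicates (−0.43, 0.0156). The marker sums were higher in these eggs too, without overlap: 153 to 169 CPM against 103.8 to 149.5 CPM at GV for cumulus and granulosa markers, and 12570 to 13480 CPM against 5612 to 10740 CPM for oocyte markers. Their part in the changes was not tested.

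In cKO oocytes 2 members were called in RiboMinus libraries (2.32%), and both fell: Appl1 from 213, 406 and 492 CPM to 84.6 to 134 CPM (log2 fold change −1.88, SE 0.24, adjusted p = 0.0205) and Eea1 from 181, 232 and 268 CPM to 67.7 to 118 CPM (−1.34, SE 0.27, adjusted p = 0.0458). Neither gene's oocytes overlapped between the stages. Appl1 did not pass without V1131 (−1.65, adjusted p = 0.0689) or V1166 (−1.97, 0.0546), nor in the fit of these groups alone (−1.86, 0.105). Eea1 did not pass without V1126 (−1.29, adjusted p = 0.0833), V1131 (−1.40, 0.137) or V1166 (−1.76, 0.0546), with DESeq2 size factors (−1.28, 0.0540) or in the fit of these groups alone (−1.31, 0.146). Snx1 was higher at MII in the cKO oocytes without overlap (1.03, SE 0.29, adjusted p = 0.0993), a difference called by the DESeq2 Wald test (1.09, 0.00521) and by limma (1.13, 0.00382). The limma fit also called Hgs (0.54, adjusted p = 0.0195) and Pik3c3 (0.62, 0.00821), both higher at MII.

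By edgeR, no member passed the test of a stage change that differs between cKO and control oocytes in RiboMinus libraries (0.0% of genes, with 3611 genes and 2 members at an unadjusted p under 0.05, and 1141 genes called by DESeq2). The differences were −1.40 for Appl1 (SE 0.37, adjusted p = 0.1895) and −1.29 for Eea1 (SE 0.42, adjusted p = 0.2502). The DESeq2 Wald test called 1 member, Appl1 (−1.36, adjusted p = 0.0444), as did edgeR without a filter on low counts (−1.37, 0.0361), and limma called 1, Eea1 (−1.29, 0.0180).

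**Figure D4:**
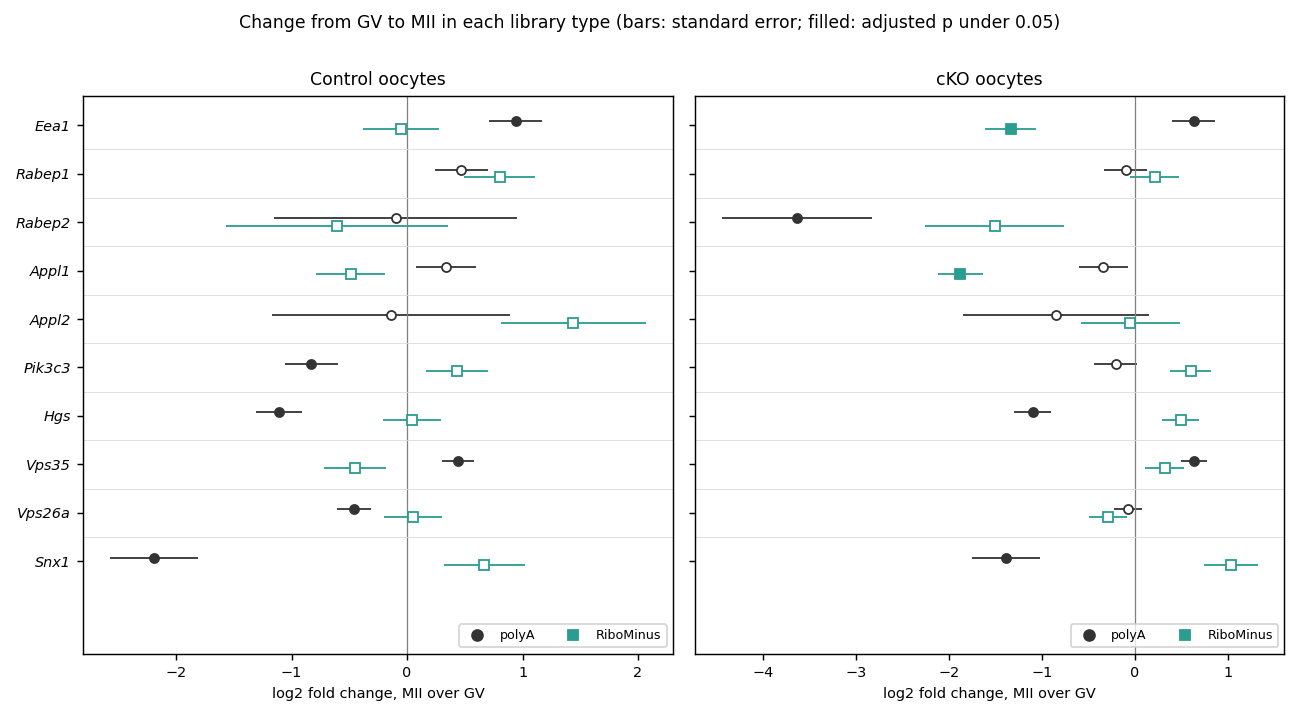
Log2 fold change of each member from GV to MII in control (left) and cKO (right) oocytes, in polyA libraries (circles) and RiboMinus libraries (squares), with standard errors from female sums; the horizontal scales differ between the panels. Filled symbols mark an adjusted p under 0.05. Snx1 and Hgs lie left of 0 in polyA and not in RiboMinus libraries, and Eea1 in cKO oocytes lies right of 0 in polyA and left of 0 in RiboMinus libraries.

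Tested directly, as the polyA change minus the RiboMinus change, the 2 library types differed for 5 members in controls (22.8% of 24777 genes) and for 4 in cKO oocytes (20.7%). Among the members, with female sums of all females, Snx1 differed most in each: −2.70 (SE 0.57, adjusted p = 0.0013) in controls and −2.25 (SE 0.52, adjusted p = 0.00331) in cKO oocytes. Hgs was −0.98 (SE 0.34, adjusted p = 0.0396) and −1.40 (SE 0.30, adjusted p = 0.00183). The polyA level of both fell, while their RiboMinus changes in controls and cKO oocytes were 0.67 and 1.03 for Snx1, and 0.04 and 0.49 for Hgs. None of these 4 RiboMinus changes passed with female sums of all groups, and other fits called that of Snx1 in each genotype and that of Hgs in cKO oocytes. With oocytes as replicates they were 0.69 (adjusted p = 0.0242) and 1.09 (0.0138) for Snx1, and 0.05 (0.806) and 0.56 (0.0244) for Hgs.

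Eea1 went the other way, with differences of 1.16 in controls (SE 0.40, adjusted p = 0.0388) and 2.16 in cKO oocytes (SE 0.35, adjusted p = 0.000135). Vps35 (1.05, SE 0.26, adjusted p = 0.0046) and Pik3c3 (−1.09, SE 0.37, adjusted p = 0.0376) were called in controls, and Appl1 (1.73, SE 0.37, adjusted p = 0.00174) in cKO oocytes. Library totals ended the calls of Eea1 (0.62, adjusted p = 0.263) and Vps35 (0.51, 0.193) in controls and of Appl1 (1.04, 0.0534) in cKO oocytes, and gave added calls for Vps26a in controls (−0.87, 0.00932) and Pik3c3 in cKO oocytes (−1.36, 0.00562). Pik3c3 in cKO oocytes was also called by the DESeq2 Wald test (−0.83, adjusted p = 0.0272) and limma (−0.71, 0.0124). Appl1 in controls was called without a filter on low counts (1.01, adjusted p = 0.0370), in the fit of these groups alone (1.02, 0.0287) and by limma (0.93, 0.0396). Those first 2 settings ended the control call of Pik3c3 (−1.07, adjusted p = 0.0916, and −1.07, 0.0696), and leaving out the filter also ended that of Hgs (−0.96, 0.0620). The limma fit also called Appl2 in controls (−3.08, adjusted p = 0.0317) and Rabep2 in cKO oocytes (−2.77, 0.0327).

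The control differences rest on the 1 RiboMinus female at MII, and 3 of them were lost when single females were left out. Eea1 was lost without V856 (1.14, adjusted p = 0.0872), V889 (1.17, 0.0825), V853 (1.05, 0.0762), V1132 (1.18, 0.0740) or V1133 (1.13, 0.0882). Pik3c3 was lost without those 5 females or V836 (−1.14 to −0.96, adjusted p from 0.0642 to 0.103), and Hgs likewise (−1.07 to −0.82, 0.0527 to 0.115). Without control V896, Appl2 was called (−4.55, adjusted p = 0.0046, against −1.41 and 0.589 with it). The 4 differences in cKO oocytes passed whichever female was left out, with that of Appl1 at 2.37 without V857 (adjusted p = 6.37e-05).

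Of 82 other genes of the pathway in 5 lists, the polyA libraries gave 8 higher and 2 lower with cKO for the GV stage, 16 higher and 9 lower for GV3h, and 13 higher and 6 lower for MII, or 12.2%, 30.5% and 23.2% called, beside 7.38%, 25.2% and 18.9% of all genes. In RiboMinus libraries 0 were called at GV and 6 higher and 3 lower at MII (11%, beside 0.0315% and 7.3% of all genes). From GV to MII in polyA libraries 15 rose and 29 fell in controls and 15 rose and 35 fell in cKO oocytes, which is 53.7% and 61.0% called beside 42.5% and 44.7% of all genes. Their median log2 fold change over the 5 genotype comparisons lay between 0.04 and 0.20, beside 0.04 to 0.25 over all genes. The list counts that follow are for the polyA GV, GV3h and MII comparisons, and their shares stand beside the same all-gene shares of 7.38%, 25.2% and 18.9%.

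The list of Rab5 activation and PI3P (20 genes) had 3 higher and 1 lower in the GV comparison of polyA libraries, 5 higher and 2 lower in the GV3h comparison, and 3 higher and 2 lower in the MII comparison (20%, 35% and 25% called). In RiboMinus libraries none of the 20 was called at GV or MII. Rab5b, one of the Rab5 proteins, was 3.00, 4.05 and 5.46 CPM in control GV oocytes and 4.74, 13.6 and 23.8 CPM in cKO oocytes (log2 fold change 1.74, adjusted p = 0.0258), overlapping only at the ends. It also rose at GV3h (2.29, adjusted p = 0.000462) and MII (1.29, 0.0239), but did not pass in RiboMinus libraries at GV (2.19, 0.113) or MII (1.68, 0.0951). Pikfyve, the kinase that turns PI3P into PI(3,5)P2, was 62.9, 73.0 and 96.4 CPM in control GV oocytes and 153.5, 183.5 and 282 CPM in cKO oocytes, with no overlap (1.35, adjusted p = 0.00538), and rose at GV3h (1.07, 0.000898) and MII (1.13, 0.000953). In RiboMinus libraries it did not pass at GV (0.82, adjusted p = 0.158) or MII (0.79, 0.104).

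Of the retromer partners and sorting nexins, 1 of 14 was higher at GV, 3 higher and 1 lower at GV3h, and 5 higher at MII (7.14%, 28.6% and 35.7% called). Snx5, a partner of Snx1 in sorting-nexin dimers, was called in 4 of the 5 genotype comparisons, all but RiboMinus GV (2.26, adjusted p = 0.0803). It was 8.23, 10.7 and 15.5 CPM in control and 30.8, 43.4 and 92.5 CPM in cKO GV oocytes of the polyA libraries (2.09, adjusted p = 0.00843), and 9.68, 11.4 and 14.7 CPM in the control eggs (lowest to highest) against 44.8 to 51.9 CPM in the cKO eggs of the RiboMinus libraries (1.93, adjusted p = 0.0435). Neither pair overlapped. Vps26b, the paralogue of Vps26a, was 0.0, 0.193 and 2.34 CPM in control and 1.76, 7.78 and 16.1 CPM in cKO GV3h oocytes (3.07, adjusted p = 0.0117). It was also called in polyA and RiboMinus eggs (adjusted p = 0.0351 and 0.0370) and not at GV (0.0613 and 0.246). Control eggs held at most 4 counts of Vps26b in polyA and 1 in RiboMinus libraries, so its log2 fold changes in eggs (3.17 and 8.32) depend on the prior count.

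Among 24 ESCRT genes, 2 were higher at GV, 6 higher and 2 lower at GV3h, and 3 higher and 2 lower at MII in polyA libraries (8.33%, 33.3% and 20.8% called). Chmp6, an ESCRT-III subunit, was at most 0.593 CPM in control GV3h oocytes and 1.13 to 12.96 CPM in cKO oocytes (adjusted p = 0.00246). It was also called at polyA GV and in RiboMinus eggs (adjusted p = 0.0274 and 0.0431) but not in polyA eggs or at RiboMinus GV (0.108 and 0.113). Control libraries held at most 5 counts of Chmp6 at polyA GV, 3 at GV3h and 0 in RiboMinus eggs. Its calls therefore rest on the cKO counts, and its log2 fold changes (4.80, 5.20 and 8.93 in that order) depend on the prior count. Of 12 recycling genes, 2, 2 and 1 were higher and 0, 3 and 1 lower (16.7%, 41.7% and 16.7% called). Ehd3, a membrane-remodelling ATPase of recycling endosomes, rose at GV (1.44, adjusted p = 0.0491) and MII (1.08, 0.0397) in polyA and at MII in RiboMinus libraries (2.80, 0.0376), and did not pass at GV3h (0.38, 0.448) or RiboMinus GV (1.28, 0.260). Of 12 tethering and maturation genes, 0, 0 and 1 were higher and 1, 1 and 1 lower (8.33%, 8.33% and 16.7% called).

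For each member, the gene with the most similar pattern was taken by Pearson's r over the 10 group means of log2(CPM + 1), centred within library type, among 9099 genes. These were Cep85l for Eea1 (r = 0.985), Actb for Rabep1 (0.918), Fastk for Rabep2 (0.972), Dcaf1 for Appl1 (0.984) and Gm42794 for Appl2 (0.972). For the rest they were Trit1 for Pik3c3 (0.982), Spout1 for Hgs (0.995), Sptlc1 for Vps35 (0.984), Spa17 for Vps26a (0.979) and Jtb for Snx1 (0.993). The 10 points share libraries and females, and each gene is the highest of 9099, so r is a description only.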

How the data were processed

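Gene counts of 86 single-oocyte libraries were used as deposited, 1 file per library. Per the submitters' processing notes, the authors' tools included cutadapt 2.5, STAR 2.7.2a and HTSeq 0.9.1 with the mm10 genome. The strand setting and annotation release are not given in the sources used here. The 5 summary lines per file stayed out of totals and tests, and reads outside genes came to 5.86 to 14.2% (polyA) and 8.34 to 12.4% (RiboMinus) of the lines' totals. The 22 rRNA files were not used. No libraries were identical.

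Symbols, positions and exon lengths came from GENCODE M21 (GRCm38), matched to 55394 of 55573 IDs, and promoters from RefSeq. Counts were summed per female, filtered with filterByExpr, scaled by TMM and tested with edgeR 4.0.16 (R 4.3.3), 1 fit over all groups of a library type for 5 genotype, 6 stage and 3 stage-by-genotype comparisons, and 1 joint fit over the groups of both types (24777 genes) for 2 library-by-stage comparisons, with p adjusted over all genes. Whether oocytes of a female were processed together is not stated, so spread may be partly technical. Alternatives were oocytes as replicates, limma 3.58.1 with the female as a random effect, only the groups compared, DESeq2 1.42.0, other scalings and filters, and leaving out each female. On simulated data for the GV genotype comparison, the test recovered 28 of 100 changes of 1 log2 unit and 83 of 100 of 2 units in polyA libraries (18462 genes, 7 false calls), and 22 and 82 in RiboMinus libraries (23245 genes, 35 false calls). The changed genes were drawn from those above 5 CPM in control GV oocytes. Rabep2 and Appl2 averaged less than that there, so these rates do not cover them.

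Members and lists were chosen with earlier results of these data known. The text names all members, Exosc10, list genes called in at least 3 genotype comparisons in 1 direction (at most 3 per list and direction), and the gene most like each member with a mean log2(CPM + 1) of at least 3. Intervals of counts (95%, Poisson) cover counting error only, since reads carry no molecular identifiers.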

Additional observations from a re-analysis of the deposited data

Results flagged for a closer look

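Single oocytes lay far from the rest of their group in 6 of 60 combinations of member and group of 4 to 10 oocytes, by the size of the gap relative to the group's range, and chance alone flags about 1 in 20. In polyA control eggs they were Rabep2 in oocyte V853_1 (1.12 CPM), Appl2 in V896_1 (7.16 CPM) and Vps26a in V853_3 (215.9 CPM), all high. In RiboMinus GV controls, oocyte V1133_1 was low for both Pik3c3 (50.02 CPM) and Hgs (159 CPM). In RiboMinus GV cKO oocytes V1126_3 was low for Vps35 (96.4 CPM).

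The change from GV to MII differed between library types beyond the test's threshold for 9 member values, as polyA minus RiboMinus log2 change. In controls these were 1.16 for Eea1, −1.09 for Pik3c3, −0.98 for Hgs, 1.05 for Vps35 and −2.70 for Snx1. In cKO oocytes they were 2.16 for Eea1, 1.73 for Appl1, −1.40 for Hgs and −2.25 for Snx1. Library type, females and sequencing depth differ together in this comparison and cannot be told apart.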

How the results depend on the processing

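Of 160 member values (10 members in 16 comparisons), 28 were called with female sums. Of these, 27 were also called with oocytes as replicates, which called 32 more. The remaining call, Rabep2 from GV to MII in polyA cKO oocytes, was not tested in that fit. The share of all genes called ran from 0.0% to 44.7% over the 16 comparisons with female sums, and from 0.0959% to 74.8% with oocytes as replicates.

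The number of members called moved by over 1.5 times as follows, with the share of all genes called under the same setting in parentheses. With oocytes as replicates it was 4 for the polyA GV genotype comparison (40.4%), 3 for polyA MII (37.6%), 4 for RiboMinus GV (37.6%), 5 for RiboMinus GV to MII in controls (30.9%) and 5 in cKO oocytes (16.1%), and 3 for the polyA (14.7%) and 3 for the RiboMinus (14.8%) test of a stage change that differs by genotype. With limma and the female as a random effect it was 4 for polyA GV (20.1%), 4 for polyA MII (22.4%), 4 for RiboMinus MII (24.8%), 1 and 5 for RiboMinus GV to MII in controls (7.0%) and cKO oocytes (19.9%), and 1 for the RiboMinus difference in stage change (4.36%). With only the groups compared it was 0 for polyA GV (0.00555%), 2 for polyA MII (18.3%), 1 for RiboMinus MII (7.54%), and 3 and 0 for RiboMinus GV to MII in controls (27.9%) and cKO oocytes (0.0%). Without a filter it was 3 for polyA MII (11%), 1 for RiboMinus GV (4.74%) and 1 for the RiboMinus difference in stage change (2.89%). With the DESeq2 Wald test it was 3, 1 and 1 for the same (25%, 6.16% and 4.49%), and with a mean of at least 50 counts 2 for polyA MII (25.7%). Library totals gave 2 for polyA MII (20%) and 1 for RiboMinus MII (6.9%), and DESeq2 size factors 1 for RiboMinus GV to MII in cKO oocytes (1.79%).

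Leaving out 1 female gave 0 to 1 members called for the polyA genotype comparison at GV, 0 to 3 at GV3h and 1 to 3 at MII, 0 to 2 for RiboMinus GV to MII in cKO oocytes, 0 to 1 for the polyA difference in stage change and 2 to 6 for the library difference in controls. It reversed 1 value, the genotype difference of Appl2 in polyA eggs (−1.15 to 2.54 over the females left out, and 2.54 without control V896). A group left with 1 female was assumed to vary like the others. The shares of all genes called without a female are not given here, so these ranges cannot be read as particular to the members.

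With library totals, the median GV to MII change of all genes in polyA libraries was −0.69 in place of −0.26 in controls and −0.86 in place of −0.33 in cKO oocytes. The share of these calls that were higher was 21.4% in place of 39.5% and 20% in place of 40.5%. For genotype that share went from 47.0% to 74.2% (polyA GV), 49.5% to 70.5% (GV3h) and 49.5% to 65.9% (RiboMinus MII). For the polyA difference in stage change it went from 81.8% to 68.9%, and for the library differences from 47.7% to 28.2% in controls and 55.8% to 20.7% in cKO oocytes.

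Over all genes, the 8 settings other than leaving out a female called 1 to 5908 genes by genotype in polyA libraries at GV (1420 with the settings used), 4339 to 7556 at GV3h (4849) and 2522 to 4803 at MII (3644), and in RiboMinus libraries 3 to 5774 at GV (8) and 1703 to 5313 at MII (1857). For RiboMinus GV to MII they called 0 to 5732 in controls (2), 0 to 3795 in cKO oocytes (591) and 0 to 2837 for the difference (0). For polyA GV to GV3h they called 0 to 66, 0 to 86 and 0 to 28 (0 each), for the polyA difference from GV to MII 13 to 2287 (373), and for the library difference 5688 to 7891 in controls (5658) and 2773 to 7840 in cKO oocytes (5139). No paired analysis was possible from the labels, because each female gave oocytes of 1 genotype, stage and library type. No number is shared between the groups compared. Some control and cKO females of a stage have neighbouring numbers, such as V856 and V857 at GV in polyA libraries. Whether such females were matched is not given in the sources used here, and pairing them was not tested.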
